A study of Mus musculus with 12 samples.

Results

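MIN6 cells, a mouse insulinoma line with properties of the pancreatic β cell, were compared after 24 hr of miR-184 induction with transfected cells that had not been induced. The comparison rests on 4 of the 12 arrays in the series. They are the 2 arrays whose titles give 24 hr of induction and the 2 titled as transfected control, taken in pairs by the slide on which they lay. Cells of both groups had received a plasmid for rtTA, a transactivator that needs doxycycline, and a plasmid with miR-184 behind a tetO promoter, delivered overnight with lipofectamine. The induced cells were then given 1 µg/ml doxycycline for 24 hr and the transfected control was given none, so that induction and doxycycline cannot be told apart between these groups. An untransfected control received lipofectamine and doxycycline but no plasmid. It is given beside the results, as are the cells induced for 16 or 48 hr, while those induced for 72 hr enter only through the shared estimate of spread and the time courses. The transfection was transient, and the labels give neither the share of cells that took up the plasmids nor the harvest time of the controls.

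MicroRNAs are short RNAs that an Argonaute protein carries to messenger RNAs. Pairing of the seed, a stretch near the 5′ end of the microRNA, with a site in the message mostly lowers the message or its translation. A gene that a microRNA represses directly is thus expected to be lower when the microRNA is supplied, while other genes can move either way. miR-184 is expressed in β cells, and Ago2, the Argonaute able to cut its target, is among its reported targets. The hairpin gives rise to a pair of mature strands, listed here from RefSeq (GRCm38.p6) because the plasmid was built to raise them. Capitals mark bases 2 to 8, the seed.
mmu-miR-184-3p: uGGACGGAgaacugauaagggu
mmu-miR-184-5p: cCUUAUCAcuuuuccagccagc
The 3p strand lies at chr9:89802263-89802284 and the 5p strand at chr9:89802302-89802323, both on the minus strand. Each seed was found in 1 of 1738 mature mouse entries, its own, so that no other entry of the table shares it. No annotated probe of the arrays is named for miR-184, and its induction was therefore not measured here.

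The arrays, Illumina MouseWG-6 v2, held 45281 probes each. A probe was taken as above background on an array when its detection p, the fraction of negative control beads that were brighter, was under 0.01. On the 24 hr arrays 16045 and 16005 probes passed, and on the transfected control arrays 16195 and 15243, the last being the lowest count of the 12 arrays. All 11 β-cell markers with a probe were above background on all 4 arrays. None of the 4 delta-cell, 7 acinar, 8 fibroblast, 6 macrophage or 6 endothelial markers with a probe was above background on any of the 4 arrays. Of the duct markers 1 of 5 (Krt7), of the neuron markers 2 of 6 (Map2 and Nefm) and of the PP-cell markers 1 of 2 (Ppy) were above background on all 4. Of 5 alpha-cell markers 4 were above background on all 4 arrays, including Gcg, which encodes glucagon, with log2 signals of 14.16 and 14.34 in the transfected control against 14.09 and 14.08 at 24 hr.

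Few transcripts separated the groups. Signals are on the log2 scale after background correction and quantile normalization, so that a positive difference means a higher signal at 24 hr. Each difference is that of 24 hr minus the transfected control, with the standard error (SE) of a limma fit over all 12 arrays in which the slide was a block. Of 12001 features tested, 2 passed an adjusted p under 0.05 (Benjamini-Hochberg), which is 0.0167% of them. Laptm4a fell (0.00833%) and Nmu rose (0.00833%). An unadjusted p under 0.05 was reached by 362 features (3.02%), 190 higher (1.58%) and 172 lower (1.43%). The median difference over all features was 0.004, and the 1st and 99th percentiles were −0.46 and 0.53. A difference above 1 on both slides was found for 4 features (0.0333%), Nmu, Ldha, Spata45 and Cdhr5, and one below −1 for Laptm4a and a probe without a gene name, 2 in all (0.0167%). As nothing beyond the labels shows the replicates to be separate cultures, p-values measure the spread between these arrays.

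**Figure D1:**
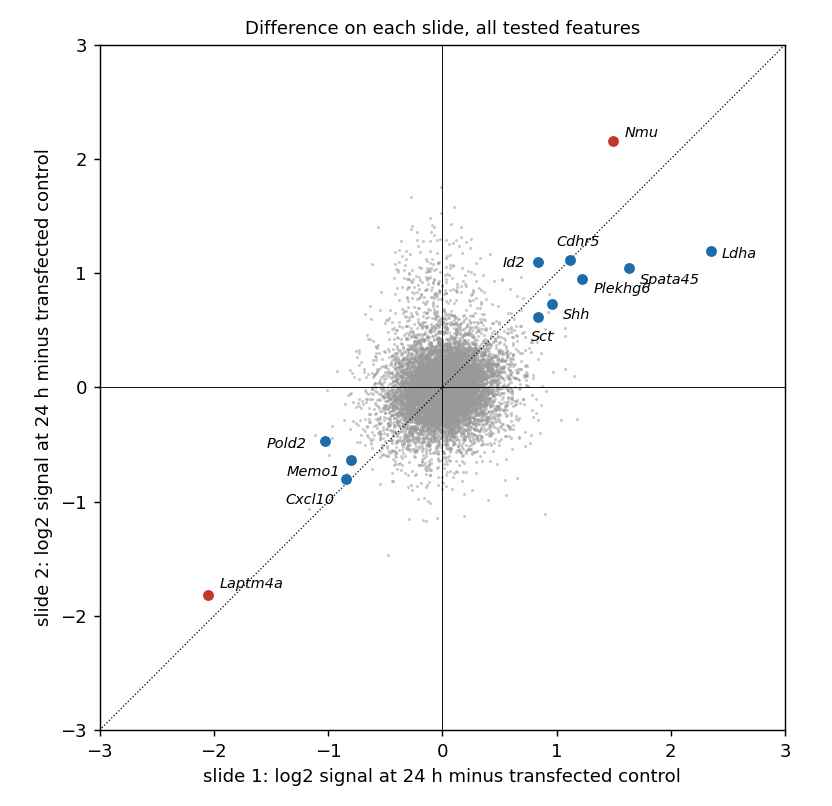
Difference in log2 signal between 24 hr of induction and the transfected control for 12001 features, on slide 1 (x axis) and slide 2 (y axis). The dotted line marks equal differences, red points are Laptm4a and Nmu, blue points are other genes named in the text, and Laptm4a (−2.05 and −1.82) and Nmu (1.5 and 2.16) stand farthest out in their quadrants along the line.

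The plot of differences by slide also shows a group of features that were higher on slide 2 alone. A difference above 0.75 on slide 2 with less than 0.25 in either direction on slide 1 was found for 141 features, against 14 with the slides exchanged. Slide 2 holds the transfected control array with the fewest probes above background. Its part in these differences was not tested, and features that moved the same way on both slides are described below.

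Laptm4a showed the largest fall. It lies on chromosome 12 and encodes a membrane protein of lysosomes and late endosomes with several membrane spans. Laptm4a had 1 annotated probe, so that no other probe could be set beside the result. Its log2 signal was 11.06 and 11.39 in the transfected control against 9.01 and 9.58 at 24 hr. The groups were far apart on both slides, and the bead signals before normalization went from 1998 and 3255 to 537 and 804. The 24 hr signal differed by −1.93 ± 0.15 (SE, n = 2 per group), a 3.82-fold lower signal, with an adjusted p of 0.000115 (limma). Without the slide as a block, the adjusted p was 0.650. Laptm4a was not lower in untransfected cells, which had received doxycycline, where its log2 signal was 11.25 and 11.73. Against these the 24 hr cells differed by −2.19 (adjusted p = 2.54e-05). At 16 hr it stood at 9.09 and 9.85, so that the signal at 24 hr differed from that at 16 hr by −0.18 with an adjusted p of 1. It was 9.29 and 9.79 at 48 hr and 9.90 and 10.75 at 72 hr. All 8 induced arrays thus lay below all 4 control arrays.

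Nmu, on chromosome 5 and also measured by 1 annotated probe, encodes neuromedin U, a peptide of nerve and gut that acts on smooth muscle and feeding. It was not well above background in either control and was above background on both 24 hr arrays and both 16 hr arrays, 4 of the 12 in all. Its log2 signal was 4.72 and 4.79 in the transfected control against 6.22 and 6.95 at 24 hr. Before normalization these were 61.4 and 72.8 against 120 and 169. The rise was at least 1.57-fold when the dim group is set at the lowest signal above background, and the measured difference was 1.83 ± 0.23 (SE, adjusted p = 0.0165, limma). In the untransfected control Nmu gave 4.65 and 4.71, at 16 hr 6.00 and 6.30, at 48 hr 5.33 and 5.81, and at 72 hr 4.76 and 5.01. The 24 hr cells thus held the highest mean of the 6 groups, although their difference from 16 hr, 0.43, had an adjusted p of 1. For Nmu the adjusted p was 0.520 without the slide as a block and lay between 0.0684 and 0.944 when any of the 4 arrays was left out. The difference itself was 1.07 in the authors' normalized intensities.

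**Figure D2:**
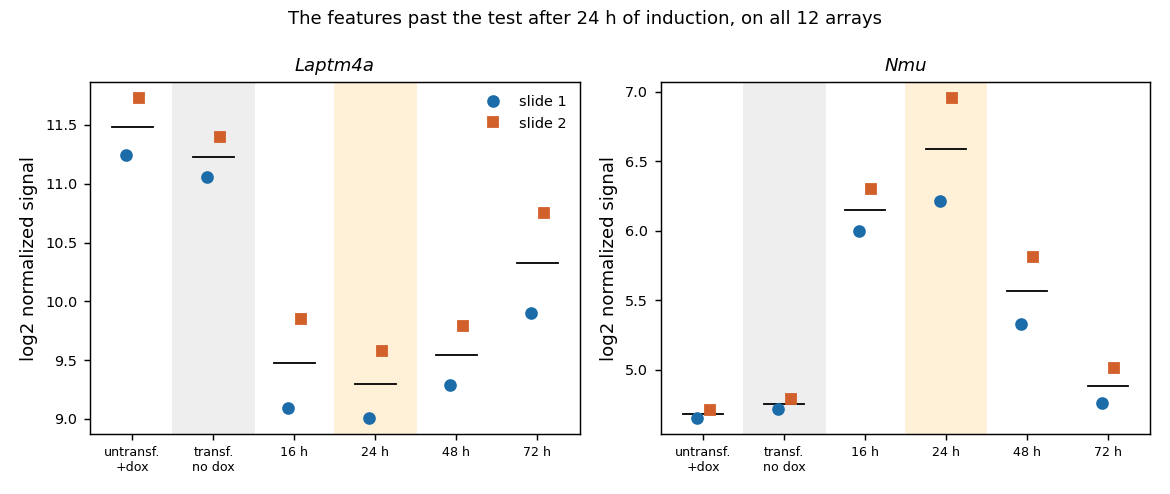
Log2 normalized signal of Laptm4a (left) and Nmu (right) on all 12 arrays, by group, with circles for slide 1, squares for slide 2 and bars for the mean of 2 arrays. Laptm4a is at 11.06 or more on every control array and at 10.75 or less on every induced array, and Nmu reaches 6.00 only at 16 and 24 hr.

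Arrays of the late times were more spread than those compared here. The root mean square of the standard deviations came to 0.218 for the 24 hr arrays and 0.272 for the transfected control, but to 0.337 at 48 hr and 0.312 at 72 hr. When the 48 and 72 hr arrays were left out of the fit, 12 features passed (0.100%), 10 higher (0.0833%) and 2 lower (0.0167%). Besides Nmu and Laptm4a these were Spata45, Sct, Shh, Rflna, Cdhr5, Plekhg6, Id2, Angpt2, Pold2 and a probe without a gene name. With all 12 arrays the adjusted p of each of these other features was 1.

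Spata45, a gene annotated as associated with spermatogenesis, had log2 signals of 5.15 and 6.14 in the transfected control against 6.79 and 7.19 at 24 hr. The difference of 1.34 ± 0.28 had an adjusted p of 0.00257 without the late arrays. Both 24 hr arrays also exceeded the untransfected control, at 5.74 and 6.44, and in each control 1 of 2 arrays was above background. Cdhr5, a cadherin-related protein of the intestinal brush border, read 5.84 and 5.53 against 6.96 and 6.65, with 1 of 2 transfected control arrays above background. Its difference was 1.12 on each slide, with an adjusted p of 0.0459 without the late arrays, but untransfected cells read 7.02 and 6.11 and overlapped the 24 hr cells.

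Sct encodes the hormone secretin and was among the brightest transcripts. Its log2 signal was 13.40 and 13.59 in the transfected control against 14.24 and 14.21 at 24 hr. The difference of 0.73 ± 0.16 had an adjusted p of 0.00160 without the late arrays. Untransfected cells read 14.07 and 14.39, and the 24 hr cells differed from them by −0.01. The transfected control was therefore the low group for Sct, and the other 5 groups, at 13.90 or more on every array, did not overlap it.

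Rflna, which encodes refilin A, a filamin-binding protein, was also lowest in the transfected control. It read 11.12 and 11.23 in the transfected control, 12.03 and 11.75 at 24 hr and 11.86 and 11.99 in untransfected cells. The difference from the transfected control was 0.71 ± 0.17 and that from untransfected cells −0.04. Plekhg6, which encodes a guanine nucleotide exchange factor, read 7.13 and 8.07 in the transfected control, 8.36 and 9.02 at 24 hr and 8.55 and 8.94 in untransfected cells. Its difference from the transfected control was 1.09 ± 0.43 and that from untransfected cells −0.05.

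Shh, the hedgehog ligand, is kept low in the developing pancreas. It read 7.65 and 8.96 in the transfected control against 8.60 and 9.69 at 24 hr. The slides differed by more than the groups, so that the groups overlapped, yet the difference was 0.96 on slide 1 and 0.73 on slide 2 (0.84 ± 0.20). Untransfected cells read 8.82 and 9.88, close to the 24 hr cells. A dimmer probe of Shh differed by 0.22. Angpt2, the endothelial ligand angiopoietin 2, was also lower in the transfected control on each slide, with 8.63 and 9.80 in the transfected control, 9.70 and 10.26 at 24 hr and 9.41 and 10.50 in untransfected cells. Its difference from the transfected control was less certain, at 0.77 ± 0.47, and ranged from 0.25 to 1.28 with an array left out, against 0.73 to 0.95 for Shh. Against the untransfected cells, Shh differed by −0.20 and Angpt2 by 0.02.

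Pold2, an accessory subunit of DNA polymerase delta, was the other lower gene. It read 11.08 and 11.04 in the transfected control against 10.05 and 10.57 at 24 hr, a difference of −0.75 ± 0.16 with an adjusted p of 0.0244 without the late arrays. Untransfected cells read 11.26 and 11.24. Pold2 therefore resembled Laptm4a in that neither control overlapped the 24 hr arrays, and it stood at 10.34 and 10.68 at 16 hr and between 10.19 and 10.34 at 48 and 72 hr.

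**Figure D3:**
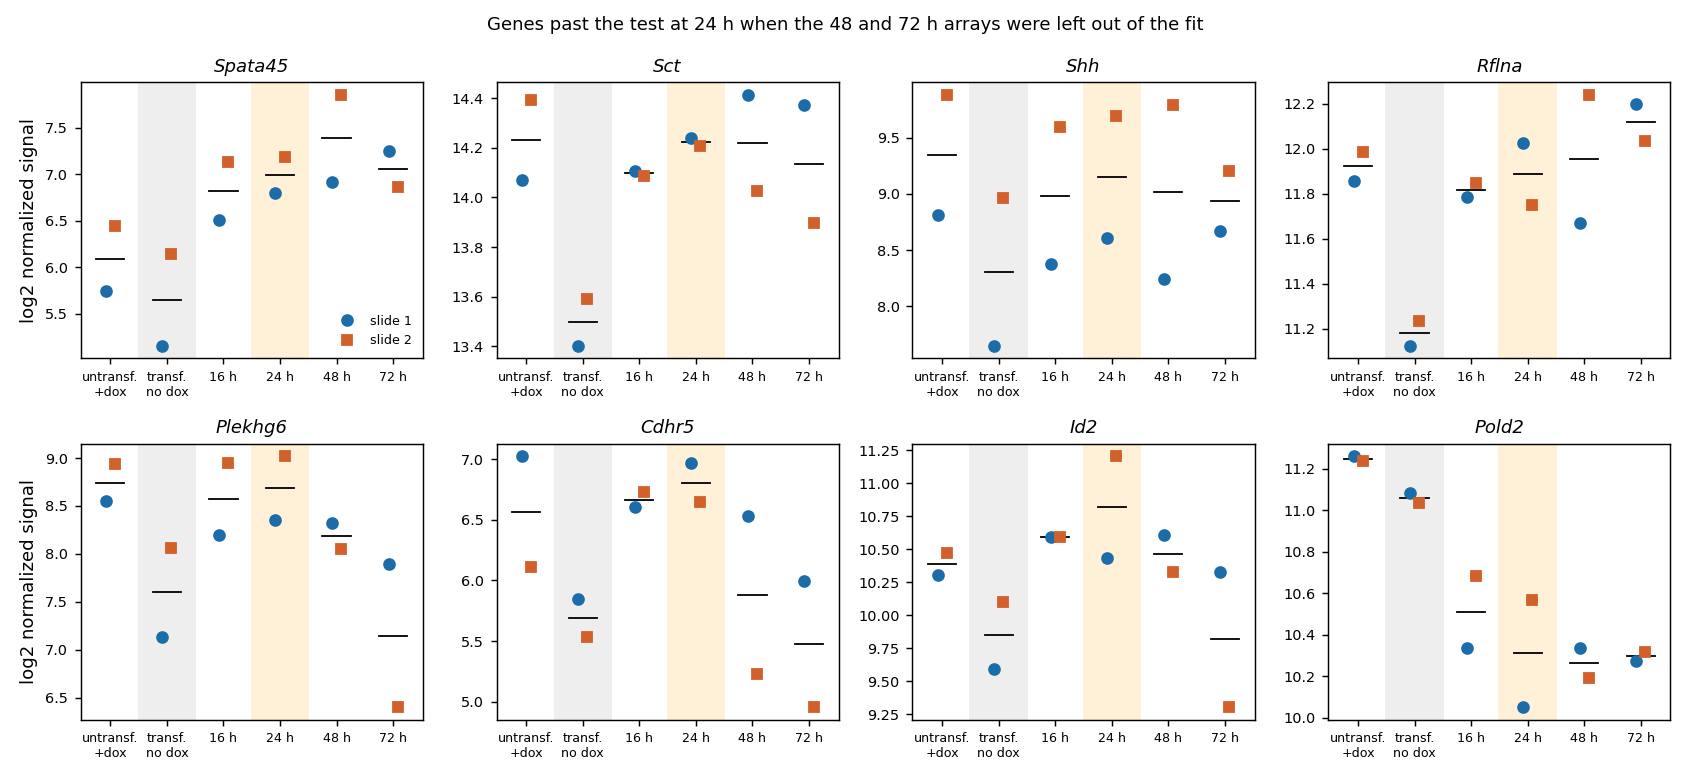
Log2 normalized signal on all 12 arrays of 8 of the genes that passed without the 48 and 72 hr arrays, by group, with circles for slide 1, squares for slide 2 and bars for the mean of 2 arrays. The transfected control (grey) lies below the 16 and 24 hr cells in mean for the first 7 genes, and untransfected cells lie near the 24 hr cells (orange) for Sct, Shh, Rflna and Plekhg6, while for Pold2 both controls lie above all induced arrays.

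Other genes with a small p moved in the same direction on both slides without passing the adjustment. Among the higher ones were Rnu6, annotated as U6 small nuclear RNA, at 0.41 ± 0.11, and Rfx2, a transcription factor of ciliated cells, at 0.57 ± 0.15. Smpdl3a, which encodes a phosphodiesterase related to acid sphingomyelinase, differed by 0.61 and Hsd3b2, a steroid dehydrogenase, by 0.67 (0.30 to 1.04 with an array left out). U6 copies are nearly identical, so that the probe of Rnu6 cannot be assigned to 1 locus. Syt7, the calcium sensor synaptotagmin 7 of insulin granules, read 8.20 and 8.54 against 8.88 and 9.08 at 24 hr, a difference of 0.61 ± 0.17. Cplx2, a complexin that acts beside synaptotagmins, read 8.48 and 8.4 against 9.04 and 8.88, a difference of 0.52 ± 0.16. These were the 2 members of 25 tested genes of insulin granule exocytosis with an unadjusted p under 0.05 and a higher signal (background 1.58%). The median of the 25 was −0.004, with 9 higher and 7 lower on both slides (background 27.0% and 26.7%). From untransfected cells the 24 hr cells differed less, by 0.22 for Rfx2, Smpdl3a and Syt7, 0.27 for Cplx2 and 0.40 for Hsd3b2. For Rnu6 that difference was larger, at 0.90. Syt7 read 8.53 and 8.97 in untransfected cells, which overlapped the 24 hr arrays.

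Among the lower ones, Memo1, a redox protein of cell migration, read 8.45 and 8.19 in the transfected control against 7.66 and 7.56 at 24 hr, a difference of −0.71 ± 0.17. It was 8.12 and 8.08 in untransfected cells, above both 24 hr arrays. Clpx, the unfoldase of a mitochondrial protease, differed by −0.60 ± 0.15. The other 8 of the 12 with the smallest p differed by −0.38 to −0.57. They included Psmd14, the deubiquitinating subunit of the proteasome (−0.54), Ubqln1, a shuttle of ubiquitinated proteins (−0.43), Mettl3, the RNA adenosine methyltransferase (−0.50), Alad, an enzyme of haem synthesis (−0.38), and Cldn1, a tight junction protein (−0.57). Prr14, a protein of the nuclear lamina, differed by −0.54 and Smap2, which acts on Arf GTPases, by −0.40. Ywhag, a 14-3-3 protein, differed by −0.50 by its brighter probe and 0.26 by its dimmer one, and a direction for it is thus not settled. Of 101 genes with an unadjusted p under 0.05 and more than 1 probe above background, 52 had all such probes on the same side. From untransfected cells the 24 hr cells differed by −0.12 for Smap2, with arrays overlapping, −0.24 for Prr14 and −0.25 for Psmd14. That difference was −0.32 for Ubqln1 and Alad, −0.38 for Clpx, −0.54 for Cldn1 and −0.55 for Mettl3.

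**Figure D4:**
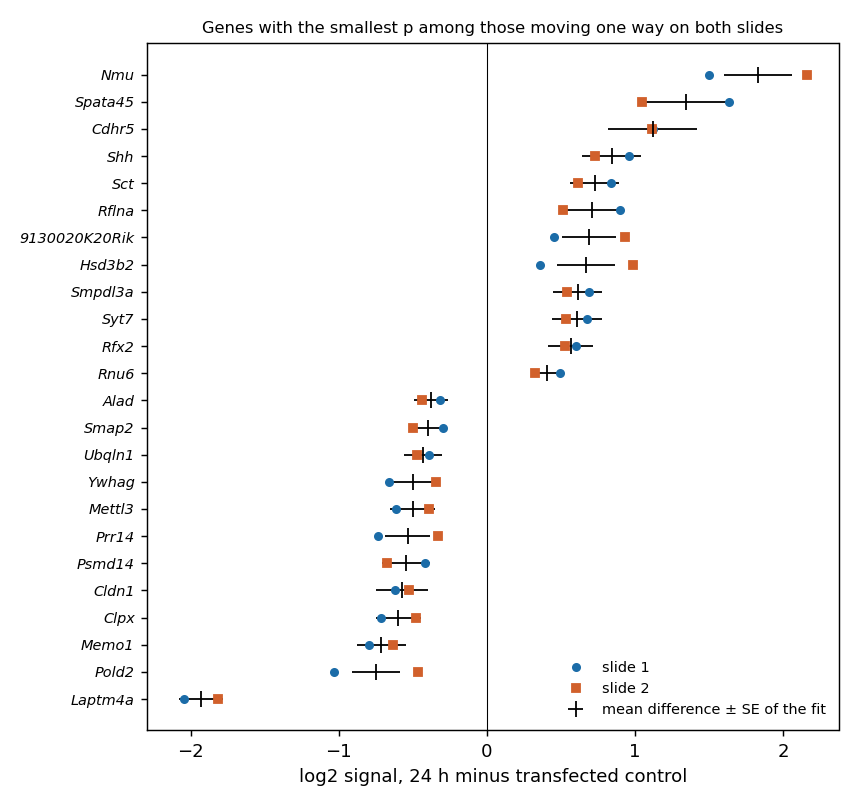
Difference in log2 signal, 24 hr minus transfected control, for the 12 higher and 12 lower genes with the smallest p among those that moved in 1 direction on both slides, with circles for slide 1, squares for slide 2, and the mean with its SE in black. The members were chosen for this difference, and Laptm4a (−1.93) and Nmu (1.83) lie apart from the rest, which stay between −0.75 and 1.34.

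Ago2, the target followed by the study, was measured by 3 probes. The brightest read 9.26 and 9.90 in the transfected control against 9.26 and 9.50 at 24 hr. The arrays overlapped, and the difference of −0.20 ± 0.18 was −0.005 on slide 1 and −0.40 on slide 2. The other probes differed by −0.09 and −0.23. All 3 were lower, and the tested difference did not exceed the spread between replicates. The brightest probe read 9.52 and 9.71 in untransfected cells, from which the 24 hr cells differed by −0.24. At 16 hr it read 8.76 and 9.66, at 48 hr 9.31 and 10.05 and at 72 hr 9.61 and 9.97. The 16 and 48 hr arrays overlapped the 24 hr arrays, and no difference of Ago2 between these groups and 24 hr passed the adjustment where tested. Slc25a22, a mitochondrial glutamate carrier and also a reported target, was above background on 1 of 12 arrays and was not tested, with bead signals of 93.4 and 125 in the transfected control against 95.1 and 81.2 at 24 hr.

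Of 14 reported targets of miR-184, 10 were tested. None had an unadjusted p under 0.05, 4 were lower and 1 higher on both slides (background 26.7% and 27.0%), and their median was −0.11 against 0.004 for all features. The differences lay between −0.25 and 0.05. Numbl, a regulator of Notch, read 6.21 and 6.17 against 5.93 and 5.97 (−0.24 ± 0.21). Bcl2, an inhibitor of apoptosis, read 6.32 and 5.99 against 6.24 and 5.58 (−0.25 ± 0.24). In each group 1 of 2 arrays was above background for Bcl2. Inppl1, a lipid phosphatase of insulin signalling, differed by −0.14, with opposite signs on the slides. Among Argonaute and miRNA pathway genes, 22 were tested, none of which reached an unadjusted p under 0.05, with a median of 0.03. Dicer1, which cuts microRNA precursors, differed by −0.22 ± 0.14 and Xpo5, which exports them, by −0.25 ± 0.20. Tnrc6b, a partner of Argonautes, differed by 0.38 ± 0.25, with 1 of 2 transfected control arrays above background.

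None of the further genes that the study follows passed the test. Cadm1, an adhesion protein and target of miR-375, read 10.10 and 10.12 in the transfected control against 9.92 and 10.15 at 24 hr (−0.08 ± 0.15). Untransfected cells read 10.51 and 10.41, above both 24 hr arrays, a difference of −0.42 that did not pass the adjustment. At 16 hr Cadm1 read 10.34 and 10.32 and at 48 hr 10.44 and 10.35, also above the 24 hr arrays. Gphn, a scaffold of inhibitory synapses, differed by 0.06 and Elavl4, an RNA-binding protein that restrains insulin translation, by 0.02. Tph1, which makes serotonin, read 9.65 and 9.51 against 10.28 and 10.11 at 24 hr (0.61 ± 0.34), while untransfected cells read 10.81 and 10.32, above both groups. Tph2 differed by 0.08. Ago1 and Rasd1 were not well above background on any of the 12 arrays, and Ins1 had no annotated probe. Ins2 had the same log2 signal of 15.53 on all 4 arrays, the ceiling that quantile normalization gives the brightest probe, and a change in it could not have been seen. Tubg1 and Tbp, used as references, differed by −0.13 and −0.08.

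Id and BMP response genes had the highest median among the 28 gene lists. The lists were written with earlier results of these data known, so that this rank is only a description. The Id proteins are helix-loop-helix factors without a DNA-binding part that hold back differentiation factors and are induced by bone morphogenetic proteins. All 6 members that could be tested of 12 were higher on both slides (background 27.0%), with a median of 0.49 (0.33 to 0.78 with an array left out), and 2 reached an unadjusted p under 0.05 (background 1.58%). Id2 read 9.59 and 10.10 in the transfected control against 10.43 and 11.20 at 24 hr (0.97 ± 0.31, adjusted p = 0.00541 without the late arrays). Its other probes differed by 0.39 and 0.15. Id1 read 10.55 and 10.78 against 11.24 and 11.46 (0.69 ± 0.40). Id3 differed by 0.38 ± 0.41. Hey1, a repressor downstream of Notch and BMP signals, read 8.12 and 8.48 against 8.84 and 8.96 (0.60 ± 0.19), and Msx1 differed by 0.18. In untransfected cells Id2 was at 10.30 and 10.47 and Id1 at 11.48 and 11.0, and against these cells the median of the 6 was 0.13.

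Genes of glycolysis and hypoxia followed, with 16 of 21 tested members higher on both slides (background 27.0%) and none lower, a median of 0.16 and no member with an unadjusted p under 0.05. Ldha, the muscle form of lactate dehydrogenase and a gene held low in β cells, read 6.48 and 9.15 in the transfected control against 8.83 and 10.34 at 24 hr. The difference was large on each slide, 2.35 and 1.20, but the slides differed by more within both the transfected and untransfected (6.35 and 9.88) controls, and the fit gave 1.77 ± 0.99. Egln1, an oxygen sensor of the HIF pathway, differed by 0.44 ± 0.22 and Aldoc, a glycolytic aldolase, by 0.43 ± 0.34. Pkm, pyruvate kinase, differed by 0.13. The median of the list was 0.001 without the first transfected control array and 0.39 without the first 24 hr array.

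Genes of ER chaperones and the unfolded protein response, on which insulin folding depends, had a median below that of all features. Of 23 tested, 11 were lower and 2 higher on both slides, the median was −0.11 (−0.22 to −0.05 with an array left out), and none had an unadjusted p under 0.05 (background 26.7% lower and 27.0% higher on both slides). Hspa5, the main ER chaperone BiP, read 6.98 and 7.20 against 6.46 and 6.85 (−0.43 ± 0.22). Hsp90b1, the ER form of HSP90, differed by −0.26 ± 0.12, Dnajc3, a co-chaperone, by −0.31, and Sel1l, of ER-associated degradation, by −0.25. Of 15 NRF2 antioxidant genes 8 were lower and 4 higher on both slides with a median of −0.11. Among these Txnrd1, thioredoxin reductase, was above background on 1 of 2 transfected control arrays and not well above background at 24 hr, where it was at least 1.16-fold lower (adjusted p = 1 by limma).

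The lysosomal membrane list, to which Laptm4a belongs, held 21 tested members with a median of −0.02. Of these 1 was called (background 0.0167%), and 5 were lower and 2 higher on both slides (background 26.7% and 27.0%). The called member was Laptm4a itself. As the lists were written with earlier results of these data known, the count of called members is only a description. Laptm4b, the nearest relative of Laptm4a, read 6.02 and 5.97 against 5.90 and 5.83 (−0.13 ± 0.21). It was above background on 1 of 2 arrays in each group, so that a change in it could be hidden. Lamp2, a major lysosomal membrane glycoprotein, differed by −0.20. Slc38a9, a lysosomal amino acid sensor, was at 6.06 and 5.74 against 6.59 and 6.69 (0.74 ± 0.29), with 1 of 2 transfected control arrays above background. Lysosomal enzymes and proton pump subunits, 27 tested, had a median of −0.03. Among 12 islet hormones and neuropeptides Nmu was called, Sct was at 0.73 ± 0.16, and Ppy, pancreatic polypeptide, differed by −0.39. Pyy, of the same family, was not well above background on either transfected control array, so that no fold is given. The 6 tested hedgehog genes had a median of 0.08, and Ptch1, the receptor and a target of the pathway, differed by 0.06 where Shh differed by 0.84.

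Differences of β-cell identity genes were small. The 14 transcription factors tested had a median of 0.07, with 6 higher and 3 lower on both slides (background 27.0% and 26.7%). Foxa2, a pioneer factor of endoderm, read 8.67 and 8.66 against 8.21 and 8.32 (−0.40 ± 0.15), and Nkx2-2 and Mafa differed by 0.25 and −0.34. Among 14 genes of glucose sensing, with a median of −0.04, Mdh1, the cytosolic malate dehydrogenase, differed by −0.53 ± 0.22 and the glucose transporter Slc2a2 by −0.25. In the respiratory chain, 34 genes with a median of −0.01, the subunits Sdhc and Sdhd of succinate dehydrogenase differed by −0.36 ± 0.12 and −0.43 ± 0.19. Of 28 genes of DNA replication 2 were lower at an unadjusted p under 0.05 (background 1.43%), Pold2 and Pcna, the sliding clamp of DNA polymerases, which read 7.73 and 7.76 against 7.16 and 7.49 (−0.43 ± 0.18). The median of these 28 was 0.02, and that of 19 mitosis genes was −0.04, with Plk1 at −0.16. The 23 autophagy genes tested had a median of 0.02, with 6 higher and 6 lower on both slides (background 27.0% and 26.7%). Of these 2 were lower at an unadjusted p under 0.05 (background 1.43%). Map1lc3b, which marks autophagosome membranes, differed by −0.58 ± 0.21 (−0.91 to −0.25 with an array left out) and Gabarapl2, of the same family, by −0.43 ± 0.20 (−0.63 to −0.23). In all, 2 of the 28 lists held a gene past the adjusted threshold, and 26 had a median between −0.11 and 0.11. The genes past the threshold were Laptm4a and Nmu. With lists written when earlier results were known, the number of lists that hold them is only a description.

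**Figure D5:**
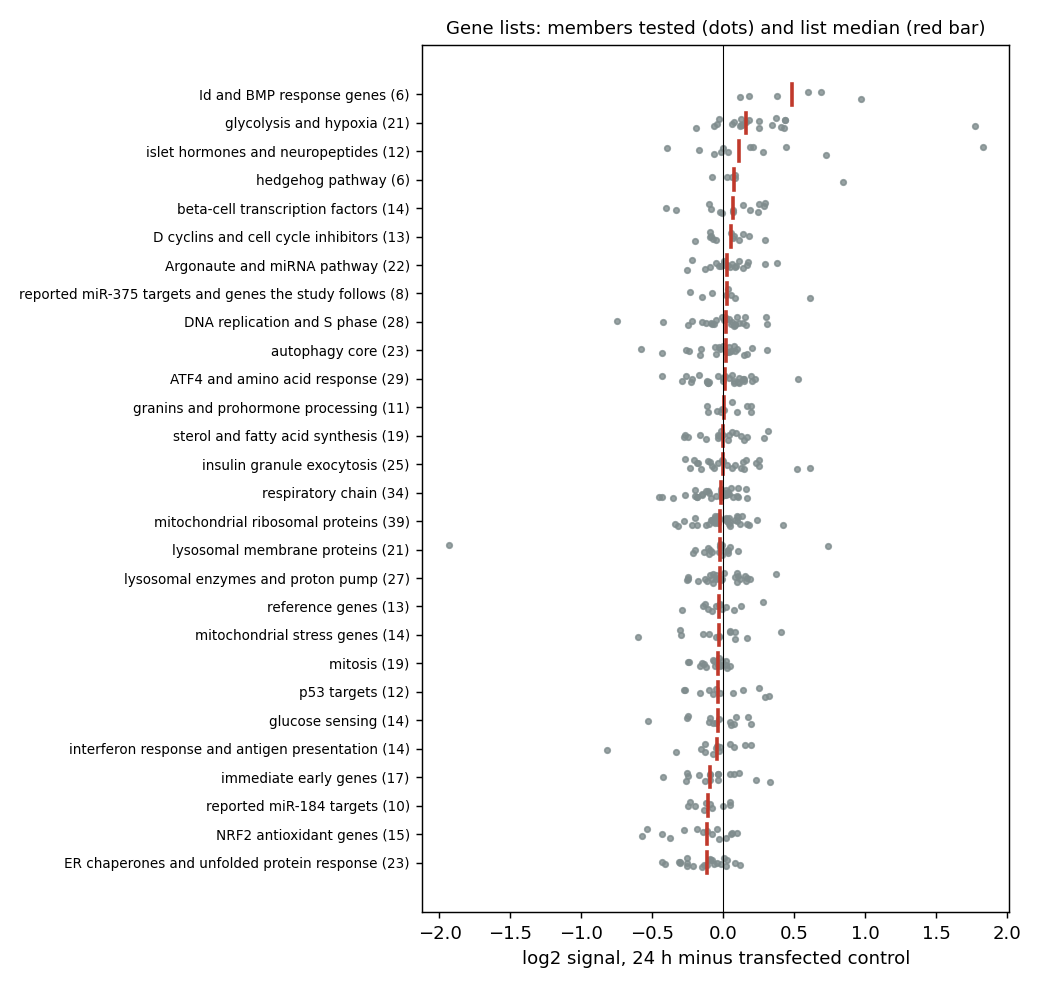
Difference in log2 signal, 24 hr minus transfected control, for the tested members (dots) of 28 gene lists and their medians (red bars), with the number tested in brackets. The Id and BMP response genes have the highest median, 0.49, and the ER chaperones and NRF2 genes lie lowest at −0.11.

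Cxcl10, an interferon-induced chemokine, gave a different order of groups. It read 7.10 and 6.39 in the transfected control, 6.26 and 5.59 at 24 hr, and 4.58 and 4.65 in untransfected cells. At 24 hr only 1 of 2 arrays was above background, so that the 24 hr level is partly a background reading. The difference of the 24 hr cells was −0.82 ± 0.28 from the transfected control and 1.31 from untransfected cells, where it was not well above background, at least 1.08-fold. The 14 tested interferon genes had a median of −0.05 against the transfected control and 0.21 against untransfected cells, where all features had 0.007.

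Against the untransfected control, which shared doxycycline but not the plasmids with the 24 hr cells, 3 features passed (0.0250% of 12001). Laptm4a was lower (above). Nmu was at least 1.70-fold higher, with a measured difference of 1.90. Rnu6 rose by 0.90 ± 0.11 (adjusted p = 0.00718), from 12.23 and 12.004 to 13.23 and 12.81, and the transfected control lay between at 12.74 and 12.48. Without the late arrays 27 features passed (0.225%), 22 higher (0.183%) and 5 lower (0.0417%). Pold2 was among them with −0.94 (adjusted p = 0.00214), as were Cxcl10 and Cdkn1a, the cell cycle inhibitor p21, which differed by 0.80 from untransfected cells and by 0.30 from the transfected control.

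Between 16 and 24 hr no feature passed the adjusted threshold in limma, or in the methods' t-test after Benjamini-Hochberg adjustment, and 148 (1.23%) had an unadjusted p under 0.05. The smallest p was that of Cst3, the secreted protease inhibitor cystatin C, which read 13.76 and 13.66 at 16 hr and 13.32 and 13.39 at 24 hr (−0.35 ± 0.10). The transfected control read 13.39 and 13.32, as the 24 hr cells did. Pcna differed by −0.52 ± 0.18 from 16 hr and Calm2, a calmodulin gene, by −0.42 ± 0.13.

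Between 24 and 48 hr 3 features passed (0.0250%) and 1632 (13.6%) had an unadjusted p under 0.05. Cib3, a calcium and integrin-binding protein, read 4.98 and 5.34 at 24 hr and 6.87 and 8.02 at 48 hr (2.28 ± 0.31, adjusted p = 0.0407). It was not well above background at 24 hr, and the rise was at least 3.01-fold. Sphk1, which makes sphingosine 1-phosphate, rose by 1.74 and Klhl24, a ubiquitin ligase adaptor, by 1.70. At 24 hr these genes differed from the transfected control by −0.16, 0.12 and 0.58. In the ATF4 and amino acid list, 29 tested genes had a median of 0.02 at 24 hr against the transfected control, with −0.14 on slide 1, 0.17 on slide 2 and −0.21 to 0.27 with an array left out. At 48 hr against 24 hr the median was 0.87, with 20 higher at an unadjusted p under 0.05 (background 7.32%) and none lower. The 48 hr arrays were unlike each other here, since the latter median was 0.20 on slide 1 and 1.58 on slide 2.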

How the data were processed

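RNA of MIN6 cells was hybridised to 12 bead arrays, 2 for each of 6 groups. The authors deposited bead-averaged signal intensities without normalization, each with a detection p-value (share of brighter negative controls). Quantile normalized intensities that the authors also deposited served as an alternative. The submitters' notes name lumi. Groups and slides were taken from the labels.

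In R 4.3.3, neqc of the limma package (3.58.1) was run on the unnormalized intensities with an offset of 16, which corrects background, equalises quantiles and takes log2. A detection p under 0.01 was required on 2 or more of the 12 arrays (17556 probes). The probe with the highest mean stood for each gene, which left 12001 features, 9493 named genes and 2508 probes without a name. Of the 45281 probes, 34885 have 1 symbol in the platform annotation, 18 several and 10378 are not listed.

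A limma model of 6 groups with the slide as a block was fitted, with a trend of variance and 5 residual degrees of freedom. Replicate numbers follow the slides, and deviations of same-numbered arrays correlated in all 15 pairs of groups (0.207 to 0.628, and 0.549 for the groups compared). Groups lay in a fixed order on both slides, and position cannot be told apart from group. A group with no array above background was given a bound. The number of arrays limits the precision. The procedure was tested on simulated data in which each feature had the same spread on every array. The wider spread of the late arrays was thus not covered. Plots were made in matplotlib 3.10.9 under Python 3.11.15.

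Genes named were those past the threshold in the fit of all arrays or without the late arrays, the 12 higher and 12 lower with the smallest p among named genes that moved in 1 direction on both slides, those the study names, up to 4 members of each list described with the smallest p, and up to 5 in each direction in other comparisons. Further members of the Id and Laptm families, Cplx2 and Pcna, the 16 hr genes, and those given against the untransfected control other than the called ones were chosen after their values were seen. The genes, lists and rules were chosen with earlier results of these data known. Alternatives were no block, another offset, uncorrected background, scaling to the median, the authors' values, other filters, every probe, fewer groups and the methods' t-test. Each array of the groups compared was also left out singly.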

Additional observations from a re-analysis of the deposited data

Results flagged for a closer look

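The step from 24 to 48 hr of induction, tested in the fit itself, set apart 3 genes that had not passed the test at 24 hr. Cib3 was higher at 48 hr by 2.28, Sphk1 by 1.74 and Klhl24 by 1.70 on the log2 scale, each with an adjusted p of 0.0407 (limma). All 3 were higher on both slides. Cib3 was 8.18 and 8.98 at 72 hr, Sphk1 8.87 and 8.79, and Klhl24 10.14 and 10.68. No gene passed these tests without the slide as a block, and none when either 24 hr array was left out.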

How the results depend on the processing

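For 24 hr against the transfected control, where 2 features passed, 0 passed without a replicate block for the slide and with the methods' t-test after Benjamini-Hochberg adjustment (446 unadjusted), 1 with probes required on at least 6 arrays, 19 with only the 2 groups fitted, 12 without the 48 and 72 hr arrays, and 1 when any single array was left out (1 to 1). Against the untransfected control, with 3, these counts were 0 without the block, 0 by the adjusted t-test (557 unadjusted), 21 and 27, and 1 to 2 with an array left out. Against 16 hr no alternative gave a call except the unadjusted t-test, with 375, and leaving out an array gave 0 to 0. From 24 to 48 hr, with 3, none (0) passed without the block, with median scaling, on at least 6 arrays or by the adjusted t-test (514 unadjusted), and leaving out an array gave 0 to 742, the highest without the first 48 hr array. Only arrays of the 2 groups compared were left out singly, not the others that enter the fit. Under the other alternatives counts stayed within 1.5 times. The cause of these changes was not tested, apart from the fewer arrays or features that some settings use. Nmu, above background on 4 of the 12 arrays, was removed by the filter of at least 6 before it could be tested.

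Of 79 genes, 17 values under an alternative changed direction. With median scaling Gphn was −0.022 and Elavl4 −0.027. Without an array, it ranged from −0.17 to 0.014 for Cadm1, from −0.007 to 0.12 for Gphn, from −0.18 to 0.21 for Elavl4, from −0.10 to 0.27 for Tph2, from −0.46 to 0.12 for Gcg, from −0.045 to 0.80 for Id3, from −0.033 to 0.90 for Aldoc, from −0.50 to 0.004 for Bcl2, from −0.46 to 0.19 for Inppl1, from −0.30 to 0.034 for Laptm4b, from −0.024 to 0.26 for Sphk1. With only the 2 groups fitted, Tph1, Id1 and Ldha also passed. Medians of 28 lists under the alternatives were judged by the gap between each list's 2 slide medians, divided by the square root of 2. By that measure 203 moved no farther than the gap and 77 moved farther. Where the slide medians lay close, as for granins at 0.032 and 0.018, a small shift was enough to be counted as farther.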

Other observations

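Beyond the genes described, the comparison with untransfected cells without the 48 and 72 hr arrays held further genes for which the transfected control stood with the 24 hr cells. They were named after their values were seen. Trim43b and Lgals3 were not well above background in untransfected cells. On the second transfected control array both were under 6.05, the lowest signal above background there. Lgals3 was also under that limit, 5.86, on the second 24 hr array. Trim43b, of the tripartite motif family, read 4.54 and 4.67 in untransfected cells, with plasmids alone 6.04 and 5.54, and after 24 hr of induction 6.65 and 5.91. Pramel4, of the PRAME-like family, read 6.23 and 5.92, then 7.24 and 7.15, then 7.51 and 7.44. Junb, an immediate early transcription factor, read 7.14 and 7.41, then 8.63 and 8.10, then 8.27 and 8.28. Lgals3, the lectin galectin 3, read 4.82 and 4.66, then 6.16 and 5.20, then 6.61 and 5.63. For these 4 genes the 24 hr and transfected control arrays all lay above both untransfected arrays. For Trim43b and Lgals3 this order rests partly on background signals.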
